A study of Mus musculus with 6 samples.

Results

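The 9 genes described here are clock output genes of mouse hind limb muscle, namely *Dbp*, *Tef*, *Hlf*, *Nfil3*, *Ciart*, *Bhlhe40*, *Bhlhe41*, *Rora* and *Wee1*. They were picked by name from the 20632 genes of the deposited table because they lie downstream of the circadian clock, and the choice was made with their levels by genotype and by sample title in view. Their levels and differences are therefore given as a description, without a p-value for any of them. Nothing is read from how many of them passed a cutoff. All 9 genes passed the filter on low counts, as did 12116 genes in all.

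RNA came from the whole muscle of the hind limb (tibialis anterior, EDL, gastrocnemius, soleus and quadriceps) of unexercised male C57BL/6 mice aged 3 months, with 1 library per mouse and 3 mice per genotype. Baf155 WT mice carried floxed *Baf155* alleles without Cre (*Baf155* f/f, labelled wild type), and Baf155 ΔMF mice carried the same alleles with *MCK*-Cre (labelled Baf155 -/-). *Baf155*, listed as *Smarcc1*, encodes a core subunit of the SWI/SNF chromatin remodeling complex. *MCK*-Cre is driven by the muscle creatine kinase promoter, so it acts in myofibers and also in heart muscle, and the other cells of the muscle keep the gene. Each title opens with one of the prefixes MS13, MS14 and MS15, whose meaning the labels leave unstated. MS13 holds 1 Baf155 WT and 2 Baf155 ΔMF mice, MS15 holds 2 Baf155 WT mice, and MS14 holds 1 Baf155 ΔMF mouse. The hour at which muscles were taken is not given in the sources used here.

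The circadian clock of each cell is a feedback loop in which CLOCK and BMAL1 (encoded by *Arntl*) switch on their own repressors through short DNA sites called E-boxes. The same pair drives output genes, many of which are transcription factors that pass the rhythm on. The PAR-bZIP proteins DBP, TEF and HLF activate genes through a site called the D-box, and NFIL3 (also known as E4BP4) represses genes through the same site. DEC1 and DEC2, encoded by *Bhlhe40* and *Bhlhe41*, and CHRONO, encoded by *Ciart*, repress the action of CLOCK and BMAL1. RORα, encoded by *Rora*, activates *Arntl* and *Nfil3* through RORE sites, and the kinase WEE1 delays entry into mitosis. In skeletal muscle the clock is known for its influence on metabolism and on the daily course of gene expression.

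Sequences in front of these genes are shown first, since the loop is known to reach its outputs through sites of the kinds searched for here. RefSeq promoter windows (250 bases before to 50 bases after a gene's start, build GRCm38.p6) were at hand for 7 of the 9 genes, that is for all but *Bhlhe40* and *Wee1*. Both strands were searched for the E-box CACGTG, the D-box TTANGTAA (N being any base), the RORE core TAGGTCA and the CRE TGACGTCA, a site for CREB-type factors. An E-box was found for 3 of the 7 genes (*Ciart*, *Tef* and *Bhlhe41*), and 7.15% of all 32851 windows of this length held one. *Ciart* had 3 copies, which began 116, 58 and 44 bases before the start. *Tef* had 1 copy in front of each of its 2 starts, 127 and 138 bases away, and *Bhlhe41* had 1 copy 153 bases away. *Nfil3* had a RORE core 12 bases before the start (2.61% of all windows), and *Hlf* had a CRE 9 bases before the start (1.79% of all windows). None of these letters was found in the windows of *Dbp* and *Rora*, and the D-box letters (2.32% of all windows) were found in none of the 7 genes. In these stretches, read 5′ to 3′ on the strand of the gene, the capitals mark the matched letters.
Ciart, chr3:95882252-95882359, minus strand: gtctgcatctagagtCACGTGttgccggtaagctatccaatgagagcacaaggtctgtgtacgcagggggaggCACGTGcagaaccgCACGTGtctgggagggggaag
Tef, second start, chr15:81811261-81811296, plus strand: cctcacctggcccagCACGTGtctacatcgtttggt
Bhlhe41, chr6:145865553-145865588, minus strand: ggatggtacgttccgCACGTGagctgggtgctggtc
Nfil3, chr13:52981040-52981066, minus strand: cgcggcgctcggaacTGACCTActaac
Hlf, chr11:90390918-90390941, minus strand: gcgcggtgcgggcccTGACGTCAc
The GENCODE M21 annotation starts *Nfil3* further upstream than RefSeq does and places all 27 bases shown for *Nfil3* within an exon. It also starts *Bhlhe41* further upstream, with 6 of the bases shown in an exon, and the E-box at the first start of *Tef*, which is not printed, lies in an exon as well. For *Dbp* it gives a start at 45705088, inside the 250 bases searched before the RefSeq start (45704997 to 45705246). Sites outside the windows were not searched. A match of letters is a description of the sequence and does not show that a factor binds there.

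The 6 libraries held between 8426022 and 12469335 counts, so 3 counts, taken as the smallest level that can be shown, corresponded to 0.23 to 0.351 CPM (the unit used throughout, counts scaled to library size with TMM factors). This limit covers counting error only. *Smarcc1* ranged from 16.9 to 23.4 CPM over the Baf155 WT mice and from 6.54 to 7.72 CPM over the Baf155 ΔMF mice, a log2 fold change of -1.49 (SE 0.15, adjusted p = 0.00907 from edgeR), which fits the labels. Both MS15 mice stood apart from the other 4 mice on the first principal component (22.5 and 25.0 against -17.1 to -1.56, 43.3% of the variance). Because only Baf155 WT mice carry MS15, the differences of the 9 genes and of the other clock genes named are given for all mice and also within MS13. Myofiber markers (*Acta1*, *Ckm*, *Myh4*, *Myh2* and *Myh1*) summed to 101000 to 108000 CPM in every mouse. Macrophage markers (*Cd68*, *Adgre1* and *Csf1r*) summed to 71.2 and 89.7 CPM in the MS15 mice and to 26.7 to 47.9 CPM in the others. Endothelial markers (*Pecam1*, *Cdh5* and *Kdr*) summed to 151 and 160 CPM in the MS15 mice and to 208 to 232 CPM in the others. Adipocyte markers (*Adipoq*, *Plin1*, *Cfd* and *Lep*) summed to 59.3 and 65.6 CPM in the MS15 mice and to 28.2 to 42.1 CPM in the others. Fibroblast and progenitor markers (*Pdgfra*, *Dcn* and *Col1a1*) summed to 1358 and 1449 CPM in the MS15 mice and to 952 to 1310 CPM in the others. None of these markers was at 0 in all 6 mice, and none passed an adjusted p of 0.05. The genotypes did not overlap in 2 of the 3 endothelial and 2 of the 5 myofiber markers (10.8% of all genes tested). They overlapped in every macrophage, adipocyte, and fibroblast and progenitor marker. The part of cells other than myofibers in the values below was not tested. In whole muscle fewer cells of a type cannot be told apart from less RNA per cell.

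*Dbp*, *Ciart* and *Hlf* were low in the MS15 mice and high in all other mice of either genotype, while *Nfil3* showed the opposite pattern. *Bhlhe41* was nearly equal in the 3 Baf155 WT mice and higher in each Baf155 ΔMF mouse. *Tef*, *Bhlhe40* and *Rora* differed by 1.36-, 1.56- and 1.81-fold between their highest and lowest mice, and *Wee1* was low throughout. Under edgeR's quasi-likelihood test, 0 of the 9 genes had an adjusted p under 0.05, where 0.0248% of all genes tested had one. DESeq2 (0.19% of all genes tested) and limma-voom (0.0413%) also called 0 of the 9 genes. At an unadjusted p under 0.05 there were 4 of the 9 genes, against 7.95% of all genes tested. Without the MS13 Baf155 WT mouse, when no prefix holds both genotypes, edgeR called 7 of the 9 genes and 7.77% of all genes tested. Without the filter on low counts it called *Nfil3* alone among the 9 (0.104% of all genes tested). With the prefix as a covariate, or without the MS15 mice, the genotype difference has the MS13 mouse as its only Baf155 WT mouse. Those fits are not counted here. Nothing is read from these counts, since the genes were picked with this contrast known.

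**Figure D1:**
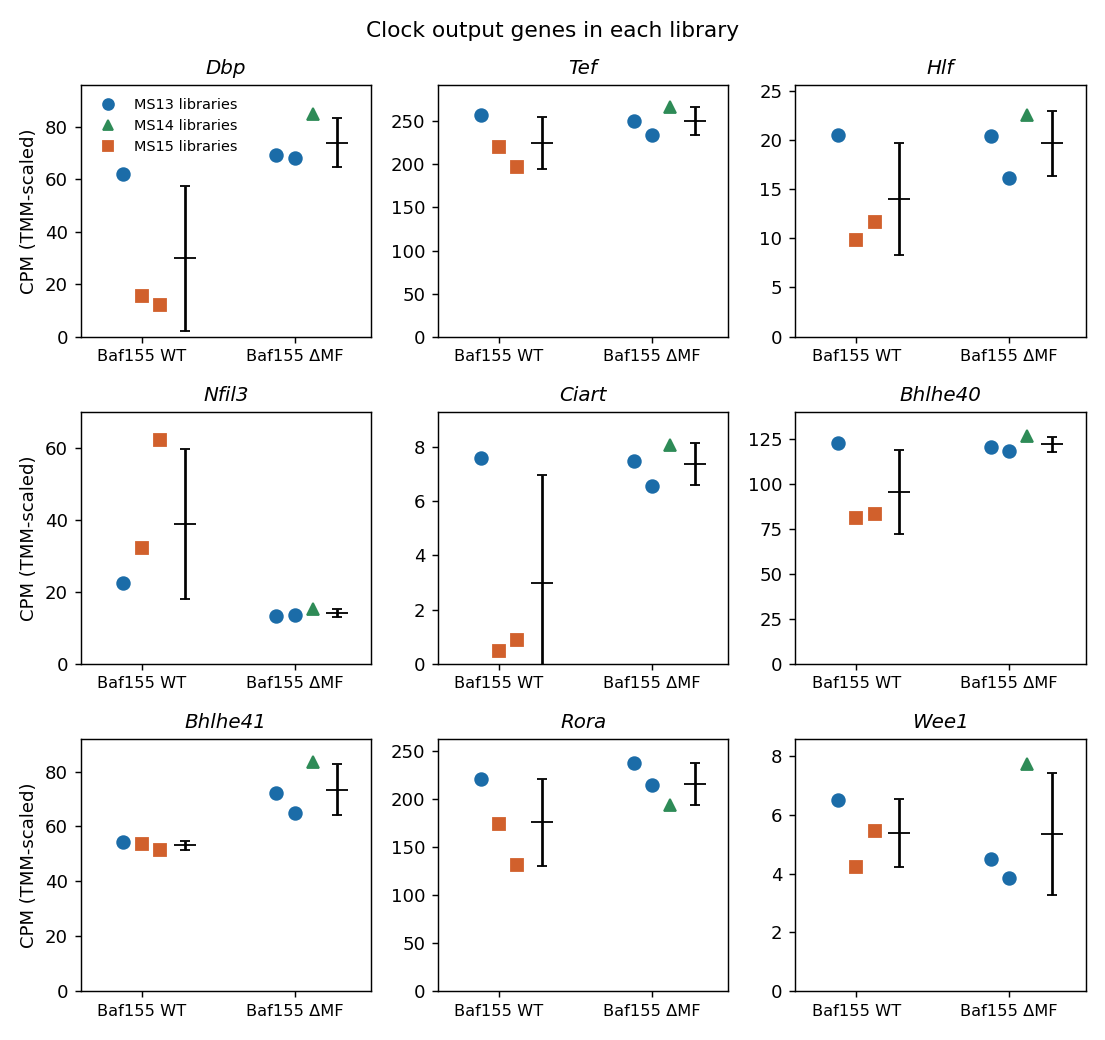
CPM of each of the 9 genes (vertical axis, TMM-scaled) in the 3 Baf155 WT and 3 Baf155 ΔMF libraries, with a symbol for each title prefix and a black mark for the mean ± SD of 3 mice (the lower end for *Ciart* in Baf155 WT lies below 0 and is cut off). In *Dbp*, *Hlf*, *Ciart* and *Bhlhe40* the MS13 Baf155 WT mouse sits with the Baf155 ΔMF mice, and in *Bhlhe41* it sits with the other Baf155 WT mice.

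Levels between genes were compared per kilobase of exon sequence in GENCODE M21. In Baf155 WT muscle the mean level per kilobase was 28.6 CPM for *Tef*, 20.4 for *Bhlhe40*, 19.3 for *Nfil3*, 13.4 for *Rora*, 9.96 for *Dbp*, 7.90 for *Bhlhe41*, 2.1 for *Hlf*, 1.58 for *Wee1* and 1.32 for *Ciart*. In Baf155 ΔMF muscle *Tef* was also first (31.8 CPM per kilobase), followed by *Bhlhe40* (26.0) and *Dbp* (24.7), and *Nfil3* (6.95) stood below *Bhlhe41* (10.9). Over single mice *Dbp* ranged from 4.06 to 28.3 and *Nfil3* from 6.59 to 30.8 CPM per kilobase, so both overlapped *Bhlhe40* (17.3 to 27.0), *Rora* (10.1 to 18.2) and *Bhlhe41* (7.64 to 12.4). The ranges of *Hlf* (1.48 to 3.38), *Wee1* (1.12 to 2.26) and *Ciart* (0.203 to 3.57) also overlapped each other and lay below those of the other 6 genes. *Rora* has the longest exon sequence of the 9 genes (13.1 kb over 6 annotated transcripts), which lowers its level on this scale if only some of its exons are used.

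*Dbp*, on chromosome 7 from 45705088 to 45710203 of GRCm38, encodes the PAR-bZIP factor with the widest daily swing in most tissues. Its level was 61.8 CPM in the MS13 Baf155 WT mouse, 15.5 and 12.1 CPM in the MS15 Baf155 WT mice, 69.2 and 68.0 CPM in the MS13 Baf155 ΔMF mice and 84.7 CPM in the MS14 Baf155 ΔMF mouse. The MS15 mice were thus the low ones, and the MS13 Baf155 WT mouse lay just below the lowest Baf155 ΔMF mouse. The Baf155 WT mean was 29.8 ± 27.7 CPM and the Baf155 ΔMF mean 74.0 ± 9.29 CPM (SD, n = 3), a log2 fold change of 1.33 (SE 0.45). Within MS13 the difference in log2 CPM between Baf155 ΔMF and Baf155 WT was 0.15. Among the Baf155 WT mice alone, the MS13 mouse was 4.47-fold above the mean of the MS15 mice. The annotation of *Dbp* shares exon sequence with *Sphk2* on the opposite strand. In all 6 libraries the estimated count of *Dbp* was not a whole number, and the strand setting of the counting is not given in the sources used here.

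*Hlf* (chromosome 11 from 90336536 to 90390895), another PAR-bZIP activator, was at 20.5 CPM in the MS13 and at 9.87 and 11.7 CPM in the MS15 Baf155 WT mice. The Baf155 ΔMF mice had 20.4, 16.1 and 22.6 CPM, so the MS13 Baf155 WT mouse lay inside their range and the MS15 mice lay below it. The log2 fold change was 0.50 (SE 0.24) over all mice and the difference was -0.18 within MS13. *Tef* (chromosome 15 from 81802421 to 81826863), the most abundant of the PAR-bZIP genes here, had 258, 220 and 197 CPM in Baf155 WT and 250, 235 and 267 CPM in Baf155 ΔMF mice, the MS13 mouse first in Baf155 WT. Its highest and lowest mice differed 1.36-fold, against 6.98-fold for *Dbp* and 2.29-fold for *Hlf*. The log2 fold change of *Tef* was 0.16 (SE 0.11), and within MS13 the difference was -0.09. In each of the 3 PAR-bZIP genes both MS15 mice had the lowest levels.

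*Nfil3* (chromosome 13 from 52967209 to 52981073) encodes the repressor that competes for the D-box. Its level was 22.4 CPM in the MS13 Baf155 WT mouse, 32.1 and 62.5 CPM in the MS15 Baf155 WT mice, and 13.3, 13.6 and 15.3 CPM in the Baf155 ΔMF mice. The genotypes did not overlap, the MS13 Baf155 WT mouse was the nearest to the Baf155 ΔMF mice, and the Baf155 ΔMF mice lay close together. The Baf155 WT mean was 39.0 ± 20.9 CPM and the Baf155 ΔMF mean 14.1 ± 1.07 CPM (SD, n = 3), a log2 fold change of -1.47 (SE 0.31). Within MS13 the difference was -0.73, and within Baf155 WT the MS13 mouse was 0.475-fold of the MS15 mean. So *Nfil3* was lower in Baf155 ΔMF muscle over all mice and within MS13, whereas within MS13 the differences of *Dbp*, *Tef* and *Hlf* were 0.15, -0.09 and -0.18. The MS13 mice are part of the comparison over all mice, and within MS13 the difference rests on a lone Baf155 WT mouse. In GENCODE M21 no other gene overlaps *Nfil3*, and its estimated counts were whole numbers in all libraries.

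The balance of activators and repressor was expressed as the mean log2 CPM of *Dbp*, *Tef* and *Hlf* minus the log2 CPM of *Nfil3*. It was 1.61 in the MS13 Baf155 WT mouse, 0.01 and -1.03 in the MS15 Baf155 WT mice, and 2.39, 2.21 and 2.37 in the Baf155 ΔMF mice. For *Dbp* and *Nfil3* alone, the ratio of CPM was 2.75 in the MS13 Baf155 WT mouse, 0.483 and 0.194 in the MS15 mice, and 5.18, 5.0 and 5.53 in the Baf155 ΔMF mice. *Nfil3* was thus the more abundant transcript only in the MS15 mice, on a scale that does not correct for length. The mean balance was 2.12 higher in Baf155 ΔMF than in Baf155 WT muscle, with no overlap between genotypes. Within MS13 it was 0.69 higher in Baf155 ΔMF than in Baf155 WT mice. There *Nfil3* differed by -0.73, and *Dbp*, *Tef* and *Hlf* by 0.15, -0.09 and -0.18, so the difference in balance lay in *Nfil3*.

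**Figure D2:**
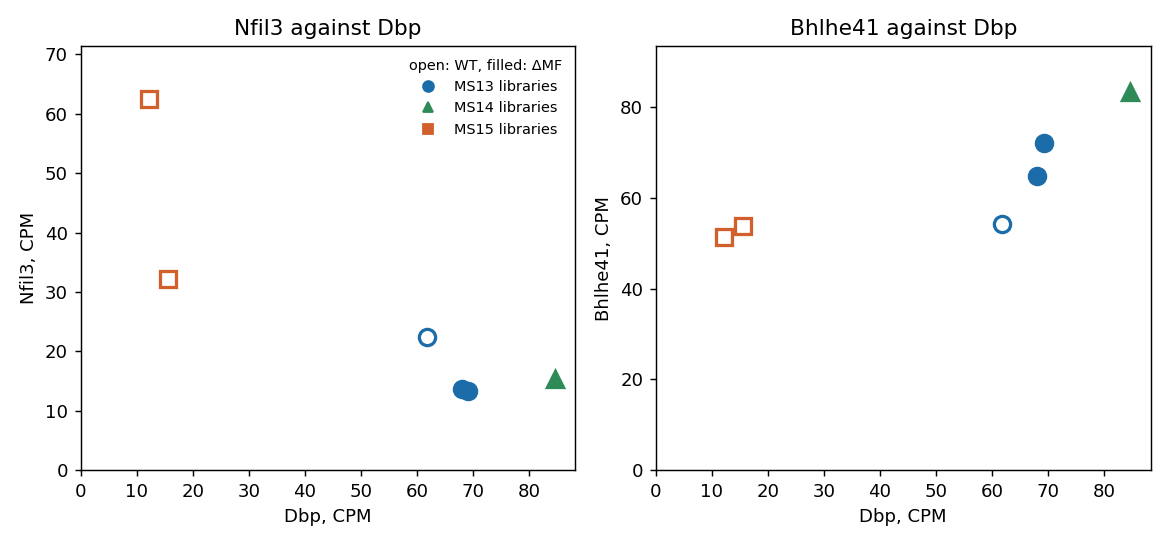
*Nfil3* (left) and *Bhlhe41* (right) against *Dbp*, in CPM, with 1 point per library (open for Baf155 WT, filled for Baf155 ΔMF, symbols for the title prefixes). The MS15 mice have low *Dbp* (12.1 and 15.5 CPM) and the highest *Nfil3*, while *Bhlhe41* is between 51.3 and 54.2 CPM in all 3 Baf155 WT mice whatever their *Dbp*.

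*Ciart* (chromosome 3 from 95878503 to 95882251), whose product CHRONO represses CLOCK and BMAL1, had the widest range of the 9 genes. Its estimated counts were 78 in the MS13 and 6 and 10 in the MS15 Baf155 WT mice, and 70, 63 and 69 in the Baf155 ΔMF mice. In CPM these were 7.58, 0.459 and 0.892 against 7.47, 6.54 and 8.07. The MS13 Baf155 WT mouse lay inside the Baf155 ΔMF range, and it stood 11.2-fold above the mean of the MS15 mice. The log2 fold change was 1.38 (SE 0.64) over all mice, and the difference within MS13 was -0.11. The promoter of *Ciart* is the one with 3 E-boxes shown above. *Tef* also has an E-box at each start and had the smallest range of the 9 genes. Whether these sites bear on the ranges was not tested.

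*Bhlhe40* and *Bhlhe41* encode the related repressors DEC1 and DEC2, and they differed in pattern. *Bhlhe40* (chromosome 6 from 108660629 to 108666925) had 123 CPM in the MS13 and 81.5 and 83.3 CPM in the MS15 Baf155 WT mice, and 121, 119 and 127 CPM in the Baf155 ΔMF mice. The MS13 mouse again lay with the Baf155 ΔMF mice, with a log2 fold change of 0.35 (SE 0.14) over all mice and a difference of -0.04 within MS13. *Bhlhe41* (chromosome 6 from 145858243 to 145865558) had 54.2 CPM in the MS13 and 53.7 and 51.3 CPM in the MS15 Baf155 WT mice, and 72.1, 64.9 and 83.4 CPM in the Baf155 ΔMF mice. Here the MS13 Baf155 WT mouse lay with the other Baf155 WT mice, and the genotypes did not overlap. For *Bhlhe41* the Baf155 WT mean was 53.1 ± 1.55 CPM and the Baf155 ΔMF mean 73.5 ± 9.32 CPM (SD, n = 3), a log2 fold change of 0.47 (SE 0.10). Within MS13 the difference was 0.33, and between the MS13 and MS15 Baf155 WT mice it was 0.05. Each of these DEC genes shares exon sequence with a transcript annotated on the opposite strand.

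*Rora* (chromosome 9 from 68653786 to 69388246), the nuclear receptor gene, had 221 CPM in the MS13 and 174 and 132 CPM in the MS15 Baf155 WT mice, and 237, 214 and 194 CPM in the Baf155 ΔMF mice. The MS15 mice were the lowest, and the log2 fold change was 0.30 (SE 0.16) over all mice against a difference of 0.03 within MS13. *Wee1* (chromosome 7 from 110122046 to 110143286), the cell cycle kinase gene, had 6.51, 4.21 and 5.44 CPM in Baf155 WT and 4.49, 3.84 and 7.72 CPM in Baf155 ΔMF mice. It followed neither the genotype nor the MS15 prefix. The log2 fold change was -0.01 (SE 0.27), while the difference was -0.63 within MS13, where the counts were 67 in the Baf155 WT and 42 and 37 in the Baf155 ΔMF mice.

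Over the 9 genes, the MS13 Baf155 WT mouse lay within the range of the Baf155 ΔMF mice in 6 genes (56.9% of all genes tested) and outside it in *Dbp*, *Nfil3* and *Bhlhe41*. The same 3 genes were those without overlap between genotypes, 2 with higher levels in Baf155 ΔMF mice (5.20% of all genes tested) and 1 with lower levels (5.57%). All 4 MS13 and MS14 mice lay above both MS15 mice in 7 genes (17.0% of all genes tested) and below them in *Nfil3* (17.5%). For *Bhlhe41* that separation rested on 54.2 against 53.7 CPM. Between the MS13 and MS15 Baf155 WT mice, *Dbp* and *Ciart* differed by more than 1 on the log2 scale (0.421% of all genes tested were higher by that much in the MS13 mouse), and 0 of the 9 were lower by that much (2.05%). *Nfil3* lay at that limit, with a difference of -0.99 when a prior count of 2 is used. Within MS13, 0 of the 9 genes were higher in Baf155 ΔMF by more than 0.4 (5.05% of all genes tested), and *Nfil3* and *Wee1* were lower by more than 0.4 (4.84%). The median log2 fold change of the 9 genes was 0.35 over all mice, and the median difference was -0.09 within MS13. For all genes tested both medians were -0.00. Since the genes were picked with these patterns in view, nothing further is read from the counts.

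**Figure D3:**
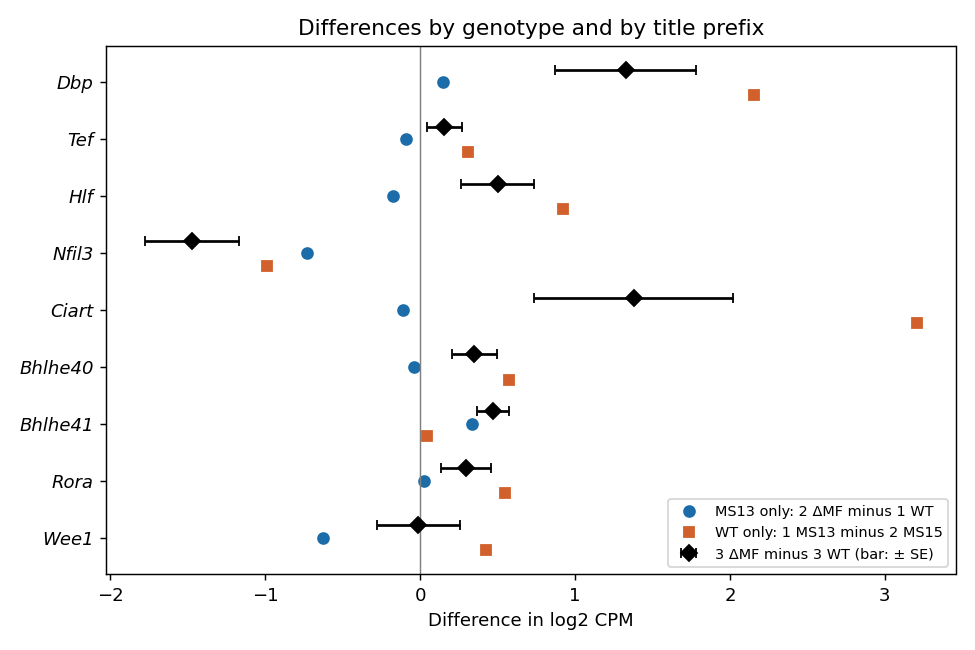
Differences on the log2 scale for the 9 genes. Diamonds are Baf155 ΔMF minus Baf155 WT over all mice (edgeR log2 fold change ± SE, 3 mice against 3). Circles are Baf155 ΔMF minus Baf155 WT within MS13 (2 mice against 1). Squares are MS13 minus MS15 among Baf155 WT mice (1 mouse against 2). Circles and squares are differences in mean log2 CPM (prior count of 2), a different measure from the diamonds. *Ciart* and *Dbp* are near 0 within MS13 (-0.11 and 0.15) and far from 0 between the prefixes (3.21 and 2.15). *Bhlhe41* is at 0.33 within MS13 and at 0.05 between the prefixes, and *Nfil3* is negative in all.

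The spread within genotypes also set the 9 genes apart from each other. The SD of log2 CPM within genotypes was 1.34 for *Ciart*, 0.90 for *Dbp* and 0.53 for *Nfil3*, which was at or above the values of 99.9%, 99.6% and 96.7% of all genes tested. *Hlf* (0.42) and *Wee1* (0.42) stood at 93.1% and 92.8%, *Rora* (0.28) at 81.3% and *Bhlhe40* (0.24) at 73.2%. *Tef* (0.15) and *Bhlhe41* (0.13) were nearer the middle, at 45.6% and 35.5%. The SD was larger in Baf155 WT than in Baf155 ΔMF mice in all of the 9 genes but *Bhlhe41* and *Wee1*. The share of all genes with a larger SD in Baf155 WT was not counted. The Baf155 WT mice span MS13 and MS15, so their SD includes the difference between these prefixes. In log2 CPM that difference was 2.15 for *Dbp*, -0.99 for *Nfil3* and 0.05 for *Bhlhe41*. For *Dbp* the SD was 1.26 in Baf155 WT and 0.18 in Baf155 ΔMF mice, and for *Nfil3* it was 0.74 and 0.11. *Bhlhe41* was the other way round, with 0.04 in Baf155 WT and 0.18 in Baf155 ΔMF mice.

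The core loop genes of the clock were set beside their outputs. *Arntl*, which encodes BMAL1, had 21.3 CPM in the MS13 and 46.9 and 52.3 CPM in the MS15 Baf155 WT mice, and 28.9, 32.2 and 13.8 CPM in the Baf155 ΔMF mice. Its levels were highest where *Dbp* was lowest. *Npas2*, a partner of BMAL1, was likewise at 4.05 and 4.19 CPM in the MS15 mice and at 0.819 to 2.28 CPM in the others. *Per3*, a repressor of the loop, had 29.1, 14.6 and 11.9 CPM in Baf155 WT and 30.9, 27.0 and 34.6 CPM in Baf155 ΔMF mice, much like *Dbp*. *Nr1d1*, which encodes the *Arntl* and *Nfil3* repressor REV-ERBα, was at 51.4 and 26.7 CPM in the MS15 mice and at 90.7 to 127 CPM in the others, and it shares exon sequence with *Thra* on the opposite strand. Between the MS13 and MS15 Baf155 WT mice, the 12 core loop genes had a median absolute difference of 0.99 on the log2 scale, against 0.58 for the 9 outputs and 0.19 for all genes tested. Within MS13 the median absolute difference between genotypes was 0.27 for the core loop, 0.15 for the outputs and 0.12 for all genes tested.

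**Figure D4:**
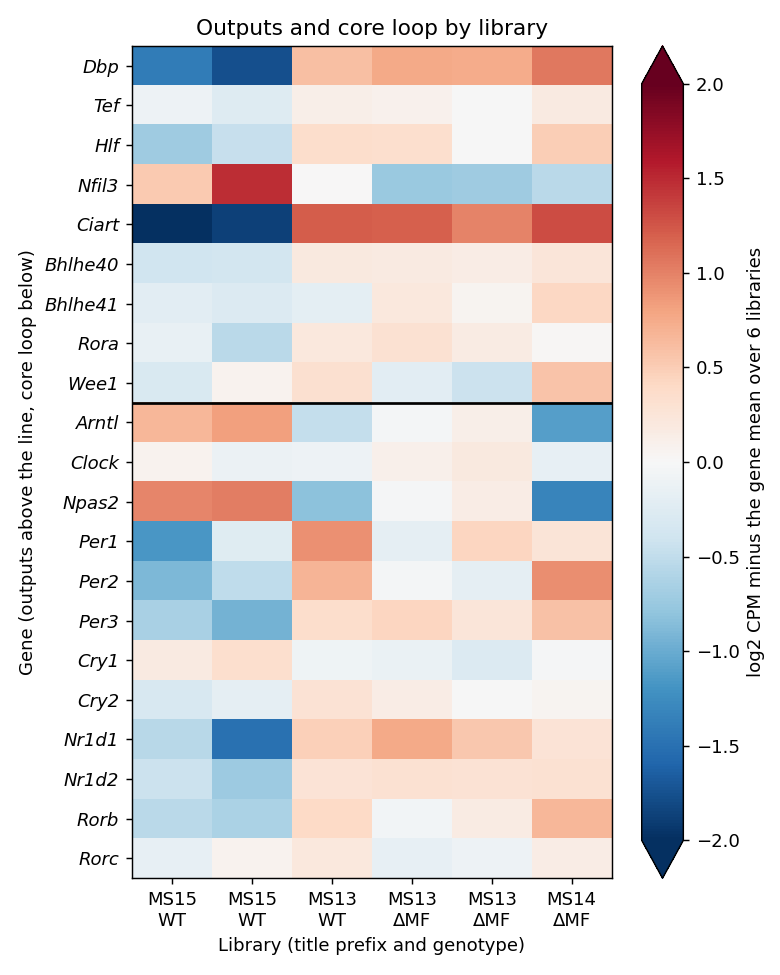
Log2 CPM of each gene minus its mean over the 6 libraries (color, no prior count), with the 9 outputs above the line, the 12 core loop genes below it, and 1 column per library ordered by title prefix. The MS15 columns are low for *Dbp* and *Ciart* and high for *Nfil3*, *Arntl* and *Npas2*, and the MS14 mouse has the lowest *Arntl* (13.8 CPM) and the highest *Dbp* (84.7 CPM).

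The genes around the outputs were counted in lists of 50 genes in all, of which 43 were tested. Under edgeR 0 of the 43 had an adjusted p under 0.05. An unadjusted p under 0.05 was found for 4 core loop genes, 5 relatives of the outputs and 3 rhythmic muscle outputs, and for 0 genes of the other lists (7.95% of all genes tested). In the core loop the adjusted p-values from edgeR were between 0.601 and 0.931 for 12 of 12 genes, with a median log2 fold change of 0.13. Its largest values were -0.88 for *Npas2*, 0.85 for *Nr1d1*, 0.74 for *Per3* and -0.68 for *Arntl*. Within MS13 the differences of these genes were 0.79, 0.18, -0.01 and 0.52, so *Npas2* and *Arntl* had the opposite sign there. Of the genes for turnover of clock proteins 7 of 8 were tested, with a median log2 fold change of 0.13. *Usp2*, a clock-driven ubiquitin protease gene, was at 0.38 and *Gsk3b*, a kinase gene, at 0.27, followed by *Csnk1d* (0.14) and *Csnk1e* (0.13), which encode the kinases that phosphorylate PER proteins. Within MS13 these genes were at -0.16, -0.02, 0.04 and 0.11.

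Among 7 relatives of the outputs (C/EBP genes of the bZIP class and *Hes1*, *Hey1* and *Heyl* of the same bHLH class as the DEC genes), *Cebpd* had the largest value. *Cebpd*, a C/EBP gene induced by cytokines and glucocorticoids, had 26.7, 23.0 and 32.5 CPM in Baf155 WT and 10.3, 11.8 and 15.4 CPM in Baf155 ΔMF mice. The genotypes did not overlap and the MS13 Baf155 WT mouse lay with the other Baf155 WT mice, as in *Bhlhe41*, though in the opposite direction. Of the 7 relatives, 2 others did not overlap and were higher in Baf155 ΔMF mice, the direction of *Bhlhe41* (5.20% of all genes tested). The log2 fold change of *Cebpd* was -1.13 (SE 0.17, adjusted p = 0.0785 from edgeR) and its difference within MS13 was -1.26. *Cebpd* passed an adjusted p of 0.05 with DESeq2 and without the filter on low counts. With the prefix as a covariate, or without the MS15 mice, the only Baf155 WT mouse behind the genotype difference is the MS13 one. Those fits are therefore not counted here. The other large values were -0.62 for *Cebpa*, 0.54 for *Heyl* and -0.43 for *Cebpb* (adjusted p = 0.601 from edgeR for each). Within MS13 *Heyl* was at 0.51 and did not overlap between genotypes, *Cebpa* at -0.10 and *Cebpb* at -0.26. *Cebpa*, *Cebpb* and *Cebpd* each share exon sequence with a gene on the opposite strand.

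Genes known as targets of PAR-bZIP factors in other tissues were also counted. *Nr1i3* and *Ces2e* were too low to be tested, and the log2 fold changes were -0.11 for *Pdxk*, which encodes pyridoxal kinase, 0.08 for *Por*, 0.06 for *Ppara* and 0.01 for *Alas1* (adjusted p between 0.832 and 0.976 from edgeR). Within MS13 these were -0.20, -0.35, -0.45 and -0.05. Of 10 rhythmic muscle outputs all were tested, with a median log2 fold change of 0.06. The largest values were -0.80 for *Lonrf3*, -0.59 for the cell cycle inhibitor gene *Cdkn1a*, 0.55 for *Coq10b* and -0.52 for the myogenic factor gene *Myod1* (adjusted p between 0.601 and 0.627 from edgeR). Within MS13 these were -0.10, -0.14, -0.21 and 0.04. *Coq10b* had 39.1, 18.4 and 14.99 CPM in Baf155 WT and 33.9, 33.5 and 38.1 CPM in Baf155 ΔMF mice, so the MS15 mice were the low ones as in *Dbp*. *Lonrf3* had 6.90, 14 and 12.8 CPM against 6.30, 6.54 and 6.67 CPM, with the MS15 mice high as in *Nfil3*. Of the genes that act beside *Wee1* at the entry into mitosis, *Pkmyt1*, *Cdk1*, *Ccnb1* and *Cdc25c* were too low to be tested. *Cdc25b*, *Cdc25a* and *Cdk2* had log2 fold changes of 0.37, -0.15 and 0.03 (adjusted p between 0.771 and 0.976 from edgeR) and differences of -0.07, 0.24 and 0.31 within MS13.

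Genes whose pattern was most like that of an output were found by Pearson's r of log2 CPM over the 6 libraries, which share their prefixes and genotypes. For *Dbp* they were *Atf1* (a bZIP factor gene of the CREB family, r = 0.998), *Dnajb5* (0.995), *Pik3r4* (0.993), *Actn2* (a Z-disc actinin gene, 0.993) and *Per3* (0.992). The least like were *Pdia6* (-0.993), *Commd4* (-0.993) and *Ifi203* (-0.992). For *Nfil3* the most like were *Tmed4* (0.995), *Mrps11*, *Lyrm2*, *Tbc1d9* and *Slc25a36* (0.988 each), and the least like were *Zfp422* (-0.995), *Fam160b2* (-0.993) and *Slc19a2* (-0.990). For *Bhlhe41* they were *Brip1* (0.989), *Zbtb43* (0.987), *Mtx3* (0.981), *Nos2* (0.976) and *St3gal5* (0.974), with *Nhsl2* (-0.987), *Zfp523* (-0.986) and *Nifk* (-0.984) at the other end. An r over 0.95 was reached by 1.22% of all other genes for *Dbp*, 0.495% for *Nfil3* and 0.173% for *Bhlhe41*. The libraries fall into 2 clusters in *Dbp*, so its r mostly tells the MS15 mice from the others.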

How the data were processed

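The deposited values are expected counts, the reads that the authors estimated for each gene symbol, not normalized, from total RNA libraries (TruSeq Stranded Total RNA kit). The submitters' processing notes name CASAVA 1.8.2, cutadapt 1.10, Bowtie2 2.2.7, TopHat2 2.1.1, RSEM 1.2.30 and limma, and the builds mm10 and GRCm38. The annotation is not given in the sources used here. After rounding to whole numbers, they were fitted with edgeR 4.0.16 under R 4.3.3 (filterByExpr with minimum counts of 10 per library and 15 in all, TMM, quasi-likelihood F test without covariate, Benjamini-Hochberg over 12116 genes). Samples were grouped by labelled genotype. SE is the log2 fold change divided by the square root of F. Differences between single prefixes are in log2 CPM with a prior count of 2. Gene positions and exon lengths are from GENCODE M21 (GRCm38), and promoters from RefSeq (GRCm38.p6). The 9 genes, the pathway lists and the alternatives were chosen with earlier results of these data known. Named genes were the 9, *Smarcc1*, up to 4 genes per list with the largest absolute log2 fold change, and the 5 genes most like and 3 least like *Dbp*, *Nfil3* and *Bhlhe41*. Alternatives were DESeq2 1.42.0, limma-voom (limma 3.58.1), changed scaling and filters, a robust fit, the prefix as a covariate and leaving out each library. The fit was tested on simulated counts that held no difference between prefixes, so that test does not bear on the prefixes here.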

Additional observations from a re-analysis of the deposited data

How the results depend on the processing

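No paired analysis was possible because the genotypes share no replicate number in the labels. In the reported fit 3 genes passed an adjusted p of 0.05. DESeq2 passed 23 genes and limma-voom passed 5, a filter of at least 1 count gave 17, the prefix as covariate gave 16, and leaving out both MS15 libraries gave 16, the last chosen after seeing the data, with the lone Baf155 WT mouse assumed to vary like the others. It ranged from 0 to 955 when each library was left out. Where edgeR passed 0 genes (2 fits), the unadjusted p was under 0.05 for 451 and 568 genes. Of the 43 listed genes tested, of which 0 passed, 1 passed (*Cebpd*) with DESeq2 and with at least 1 count in all. From 0 to 15 passed when each library was left out. With the prefix as a covariate the genotype difference rests on the MS13 mice alone. That fit thus has the same lone Baf155 WT mouse as the fit without both MS15 libraries. Both 955 and 15 came from leaving out the MS13 Baf155 WT mouse, after which no prefix holds both genotypes, so prefix and genotype cannot be told apart. In that fit 7 of the 9 outputs passed, all but *Tef* and *Wee1*, where 7.77% of all genes tested passed. Besides, *Nfil3* passed with at least 1 count in all (0.104% of all genes tested). The median log2 fold change of the 9 outputs, 0.35, was -0.089 once the prefix was a covariate and -0.04 without both MS15 libraries. It was 0.26 to 0.50 when each library was left out, and their median SD within genotypes, 0.42, was then 0.20 (without the MS13 Baf155 WT mouse) to 0.47. The covariate turned the sign of *Tef* (-0.09), *Hlf* (-0.17), *Ciart* (-0.11) and *Bhlhe40* (-0.04), and without both MS15 libraries *Rora* (-0.04) also turned. *Dbp* was at 0.15 and 0.26, *Nfil3* at -0.74 and -0.68 and *Bhlhe41* at 0.34 and 0.43 in these fits. With each library left out, *Bhlhe41* stayed between 0.37 and 0.55 and *Wee1* ranged from -0.36 to 0.18. Leaving out the MS13 Baf155 WT mouse gave the highest values of *Ciart* (3.45), *Dbp* (2.41), *Hlf* (0.87), *Bhlhe40* (0.57), *Rora* (0.50) and *Tef* (0.27), and the lowest of *Nfil3* (-1.74). Leaving out 1 of the MS15 mice gave the other end, which was 0.82 for *Ciart*, 0.30 for *Hlf* and 0.25 for *Bhlhe40* (without the mouse with the lower *Ciart*), and 0.95 for *Dbp*, 0.12 for *Rora*, 0.07 for *Tef* and -0.96 for *Nfil3* (without the other). With limma-voom *Ciart* was at 2.39. With at least 10 counts in every library *Ciart* was not tested. The balance of activators and repressor was 2.12 to 2.14 under the other prior count and scaling, neither of which bears on the prefixes. Where a value moved, the cause was not tested.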
